A study of Mus musculus with 12 samples.

Results

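Bone marrow RNA of mice given 5-azacitidine alone was compared with that of mice given PD-901 alone, across all genes with enough counts. The comparison rests on 6 of the 12 libraries of the series, 3 mice a side, taken by the agent named for each sample in the labels. All mice carried Shp2E76K/+;LysM-Cre+ of strain C57Bl/6J, were 12 to 14 weeks old and of both sexes, and no group here lacks the mutant allele. The E76K allele of Ptpn11 encodes a leukaemia-associated form of the phosphatase Shp2, and LysM-Cre, driven by the Lyz2 promoter, is active in myeloid cells, so the mice model juvenile myelomonocytic leukaemia (JMML). The PD-901 mice received 5 mg/kg by oral gavage in 20 doses over 4 weeks, and the 5-azacitidine mice received 5 mg/kg into the peritoneum in 5 doses over 4 weeks. The agents were therefore compared as regimens that differ in route and number of doses. A vehicle group and a combination group of 3 mice each entered the same model, and the vehicle values are given beside the single agents. The series asks how the pair of drugs acts on this disease, and the comparison here asks where the marrow differs between them when each is given alone.

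PD-901 (PD0325901) blocks MEK, the kinase that activates ERK. Shp2 works upstream of Ras, so signals from growth factor receptors pass through Shp2 and Ras to RAF, MEK and ERK, and active ERK switches on a set of output genes that includes its own phosphatases and the Sprouty inhibitors. 5-azacitidine is a cytidine analogue that cells phosphorylate and build into RNA and DNA, where it traps the DNA methyltransferase Dnmt1 and lowers methylation as cells divide. The marrow of these mice holds maturing neutrophils and monocytes, red cell precursors, B cell precursors and small numbers of other cells. In bulk RNA, fewer cells of a type and less RNA per cell cannot be told apart.

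Total counts ran from 16335382 to 27148190 in the PD-901 libraries and from 15356919 to 23278572 in the 5-azacitidine libraries. The 5-azacitidine replicate 1 library was the smallest of the 12, had the fewest genes with a count (18897) and the highest mitochondrial share of the 6 single-agent libraries (1.73% of counts, against 1.01% to 1.39% in the other 5). Among those 6, a principal component analysis of the 500 genes with the highest variance set it apart on the first axis (48.4% of the variance), at 54.96 against -15.7 to -6.15. Reads of Xist, which silences one X chromosome in female cells, and of 4 Y-linked genes were found together, each above 50 CPM (counts scaled to a common library size), in 5 of the 12 libraries, although the labels describe each sample as 1 mouse. These were PD-901 replicates 2 and 3, 5-azacitidine replicate 2, and 2 vehicle libraries. In PD-901 replicate 2 Xist stood at 344 CPM and the Y-linked sum at 56.6 CPM, in PD-901 replicate 3 at 151 and 148 CPM, and in 5-azacitidine replicate 2 at 232 and 114 CPM. PD-901 replicate 1 and 5-azacitidine replicates 1 and 3 had Y-linked reads of 187 to 212 CPM and at most 1.30 CPM of Xist. Only these 3 of the 6 held reads of one kind, and values without the 5 libraries are given in the closing section and where they change a call.

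**Figure D1:**
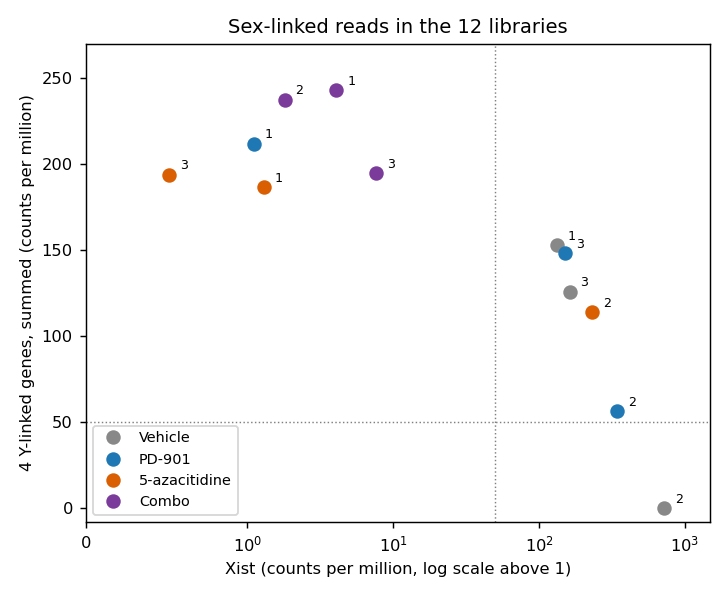
Xist (x axis, CPM, log scale above 1) against the summed level of 4 Y-linked genes (y axis, CPM) in each of the 12 libraries, with the replicate number beside each point and dotted lines at 50 CPM. 5 libraries lie above both lines, among them 2 of PD-901 and 1 of 5-azacitidine.

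No gene passed the test in either direction (0 higher and 0 lower in 5-azacitidine of 17475 genes tested, 0% of them). The test was edgeR's quasi-likelihood test with Benjamini-Hochberg adjustment over all genes tested, and the lowest adjusted p was 0.502. At an unadjusted p under 0.05 there were 1276 genes (7.3%), where an equal share in every interval of p would give 874 (5%). Of these 535 (3.06%) were higher and 741 (4.24%) lower in the 5-azacitidine mice. The 3 libraries of one agent lay wholly above the 3 of the other for 2400 genes (13.7%), 1145 (6.55%) with 5-azacitidine above and 1255 (7.18%) with PD-901 above. With 3 libraries a side, some genes separate in this way without any effect of the agents, and that share was not estimated. Other fits of the same counts gave few calls. DESeq2 found 18 genes higher (0.103%) and 27 lower (0.155%), limma-voom found 0 in either direction, and edgeR without the filter on low counts found 36 (0.104%) and 108 (0.313%). Without 5-azacitidine replicate 2 edgeR called 1 gene higher (0.00528%) and 2 lower (0.0106%), B4galt6 at 1.30 on the log2 scale (adjusted p = 0.0164), Nr4a1 at -1.76 (adjusted p = 0.0164) and Snn at -2.04 (adjusted p = 0.0245).

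**Figure D2:**
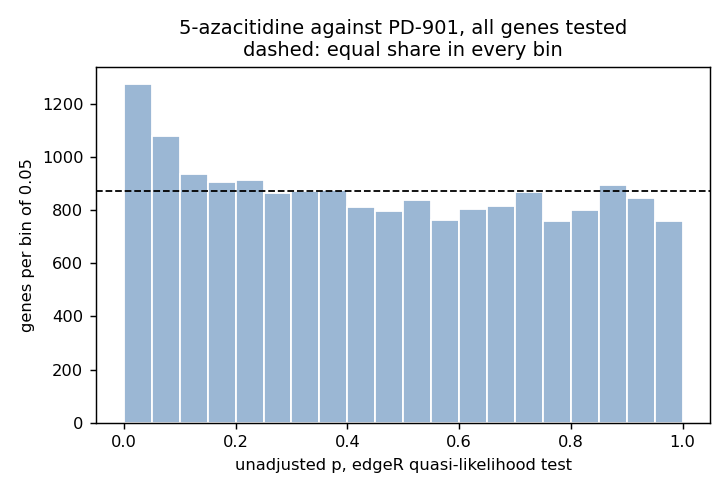
Number of genes (y axis) in each interval of 0.05 of the unadjusted p (x axis) for 5-azacitidine against PD-901, 17475 genes. The first bar holds 1276 genes, and the dashed line is the 874 that an equal share would give.

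The size of difference these mice could show was also measured. All differences below are log2 changes of 5-azacitidine minus PD-901 with their standard error (SE), so positive values are higher after 5-azacitidine. Their median over all genes tested was -0.01, 8476 genes (48.5%) lay above 0 and 8997 (51.5%) below, and the 95% interval of a gene reached 0.61 to either side at the median. For 9409 genes (53.8%) the whole interval lay between -1 and 1, which bounds the difference between the agents at 2-fold, and for 12672 (72.5%) between -2 and 2. An estimate of at least 2-fold in either direction was found for 1832 genes (10.5%). Single libraries of different agents differed by a root mean square of 0.799 to 1.22 in log2 CPM over 9 pairs, against 0.824 to 0.913 within PD-901 and 0.837 to 1.17 within 5-azacitidine. The biological coefficient of variation was 0.287 among the PD-901 mice and 0.359 among the 5-azacitidine mice. In this model none of the genes described below passed the adjusted threshold. Calls by DESeq2 on the same 12 libraries and by edgeR without the filter on low counts are named with the genes, and the gene lists were compiled with earlier results of these data known. Counts within a list stand against all genes tested, of which 3.06% were higher and 4.24% lower at an unadjusted p under 0.05. With no overlap, 6.55% had 5-azacitidine above and 7.18% had PD-901 above.

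The genes of the primary granules of neutrophils, which promyelocytes make first in granulocyte maturation, had positive differences throughout. All 10 members of the list lay above 0, with a median of 0.62, where 48.5% of all genes tested lay above 0. At an unadjusted p under 0.05 there were 8 of 10, beside 3.06% of all genes tested. For 3 of 10 the groups did not overlap, beside 6.55%. Ctsg, the serine protease cathepsin G, stood at 296, 324 and 351 CPM in the PD-901 mice and at 727, 508 and 821 CPM in the 5-azacitidine mice. The highest PD-901 mouse thus lay below the lowest 5-azacitidine mouse, and the vehicle mice (241, 249 and 399 CPM) overlapped the PD-901 mice. Its difference was 1.08 ± 0.24 (SE, n = 3 a group), with an edgeR adjusted p = 0.502. Ms4a3, a marker of granulocyte and monocyte progenitors, was at 151, 156 and 151 CPM with PD-901 and at 247, 218 and 433 CPM with 5-azacitidine, a difference of 0.97 ± 0.23. Prtn3, proteinase 3, was at 1172, 1063 and 936 CPM against 1824, 1219 and 2666 CPM. Neither gene had overlapping groups. For Elane, neutrophil elastase, and Mpo, myeloperoxidase, the groups overlapped through 5-azacitidine replicate 2. That mouse had 1158 CPM of Elane and 2576 CPM of Mpo, within the PD-901 ranges of 1110 to 1213 and 2366 to 3036, while the other two 5-azacitidine mice had 1730 and 2196 CPM of Elane and 4247 and 4102 CPM of Mpo. Gfi1, a transcription factor of granulocyte development, was also lowest of its group in that mouse, at 144, 69.2 and 129 CPM with 5-azacitidine against 60.5 to 87.4 CPM with PD-901. Summed over the list, the PD-901 libraries ranged from 6047 to 6532 CPM and the 5-azacitidine libraries from 6735 to 11784 CPM. The median without any 1 library and under the other settings ran from 0.42 to 0.87. DESeq2 called Ctsg (adjusted p = 0.0135) and Ms4a3 (adjusted p = 0.0239), and edgeR without the filter called these, Prtn3, Gfi1, Prss57 and Serpinb1a.

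Lists of later stages of the neutrophil series had medians nearer to or below 0. The 11 secondary granule genes, made by myelocytes, had a median of 0.13 and 0 members at an unadjusted p under 0.05 (edgeR). The 16 mature neutrophil genes tested had a median of -0.34, with 13 below 0 and 1, the growth factor receptor gene Csf3r, at p under 0.05 (-0.68 ± 0.31). Over all genes tested 4.24% were lower at that p. Csf3r stood at 1462, 973 and 968 CPM with PD-901 and at 490, 954 and 678 CPM with 5-azacitidine. PD-901 replicate 1 had the largest mature neutrophil sum of the 6 libraries, and the median of that list was -0.07 without it and -0.09 without 5-azacitidine replicate 1. The secondary granule median turned to -0.04 without 5-azacitidine replicate 3.

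The 250 bases before the start are shown for Ctsg and Prtn3, primary granule genes whose groups did not overlap. The windows are from RefSeq (GRCm38.p6), at chr14:56102575-56102824 on the minus strand and chr10:79879417-79879666 on the plus strand. Capitals mark GAGGAA, a longer form of the GGAA core that ETS family factors such as PU.1 read, searched on both strands. Other copies of GGAA are left unmarked.
Ctsg: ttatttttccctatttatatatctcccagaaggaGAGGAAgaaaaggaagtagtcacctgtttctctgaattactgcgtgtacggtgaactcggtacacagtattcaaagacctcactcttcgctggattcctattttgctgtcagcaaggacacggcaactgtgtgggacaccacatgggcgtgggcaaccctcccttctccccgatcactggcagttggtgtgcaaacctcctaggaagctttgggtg
Prtn3: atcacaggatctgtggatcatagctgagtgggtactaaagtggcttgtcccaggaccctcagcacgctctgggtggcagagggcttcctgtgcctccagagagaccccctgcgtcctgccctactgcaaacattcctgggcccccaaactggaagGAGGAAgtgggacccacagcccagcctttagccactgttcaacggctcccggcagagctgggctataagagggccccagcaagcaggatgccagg
Each window holds 1 GAGGAA site. Of the 10 primary granule genes 7 had a promoter in the table, and 5 of the 7 (71.4%) held the motif, beside 23.3% of all 32851 promoters. A match of letters is a description of the sequence only.

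Immediate early genes, which cells switch on within minutes of a stimulus and also when tissue is taken apart, had the lowest median of the 35 lists, at -0.93. Of 19 members tested 17 lay below 0, 11 at an unadjusted p under 0.05 and 9 with no overlap and PD-901 above. Over all genes tested 51.5% lay below 0, 4.24% were lower at that p and 7.18% had PD-901 wholly above. Egr1, a zinc finger transcription factor that ERK induces through serum response factor, stood at 283, 124 and 149 CPM with PD-901, at 28.3, 77.2 and 32.6 CPM with 5-azacitidine and at 53.5, 42.8 and 105 CPM with vehicle. Every PD-901 mouse lay above every vehicle mouse and every 5-azacitidine mouse, and the groups treated with 5-azacitidine and vehicle overlapped. The difference was -2.01 ± 0.44 (SE, n = 3 a group; edgeR adjusted p = 0.502). Ier5, an immediate early gene that acts with heat shock factor, was at 680, 360 and 344 CPM against 112, 279.5 and 205 CPM, with vehicle at 257 to 276 CPM. Zfp36, which encodes tristetraprolin, a protein that speeds the decay of inflammatory mRNAs, was at 1548, 888 and 834 CPM against 337, 771 and 607 CPM. Fos and Junb, subunits of the AP-1 factor, were at 1084, 519.7 and 505 CPM against 148, 509.6 and 369 CPM, and at 1514, 754 and 758 CPM against 251, 751 and 532 CPM. For Egr1, Ier5, Btg2, Zfp36, Junb and Fos the highest of the 6 libraries was PD-901 replicate 1 and the lowest 5-azacitidine replicate 1. Fos of 5-azacitidine replicate 2 lay within the PD-901 range, and Junb of that mouse just below it. Myc (0.19 ± 0.15) and Nr4a2 (0.25 ± 0.29) were the 2 members above 0.

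These same libraries were also the largest and the smallest in total counts (27148190 and 15356919). The mature neutrophil sum was 36121 CPM in PD-901 replicate 1 and 22604 CPM in 5-azacitidine replicate 1. The part of these features in the immediate early difference was not tested. The median of the list was -0.59 without PD-901 replicate 1, -1.16 without 5-azacitidine replicate 2 and -1.58 in the 7 libraries that lack the double sex-linked reads. On all 12 libraries DESeq2 called Egr1 (adjusted p = 0.0269) and Ier5 (adjusted p = 0.0158), and edgeR without the filter called Ier5, Zfp36, Btg2, Jun and Ier2, not Egr1. In those 7 libraries, with PD-901 replicate 1 as the lone PD-901 sample and assumed to vary like the other groups, edgeR called 3 genes lower (0.015%), Egr1 (-3.21, adjusted p = 7.27e-05), Nr4a1 (-2.13, adjusted p = 0.018) and Ier5 (-2.09, adjusted p = 0.0485). Across the alternatives the adjusted p of Egr1 ran from 7.27e-05 to 0.899.

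The promoter of Btg2, an antiproliferative member of the list at 378, 220.1 and 220 CPM with PD-901 and at 107, 203 and 156 CPM with 5-azacitidine, is shown for its cAMP response element, a site that immediate early genes often carry. It is the 250 bases before the start at chr1:134079156-134079405, minus strand (RefSeq, GRCm38.p6), with capitals on TGACG and its overlapping copy on the other strand.
Btg2: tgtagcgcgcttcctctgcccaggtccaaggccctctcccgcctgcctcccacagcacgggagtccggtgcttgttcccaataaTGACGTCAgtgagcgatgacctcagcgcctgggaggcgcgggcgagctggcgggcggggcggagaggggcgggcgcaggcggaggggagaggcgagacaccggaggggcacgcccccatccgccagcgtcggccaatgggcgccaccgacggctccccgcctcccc
TGACG, on either strand, was present in 11 of 17 promoters of the list found in the table (64.7%), beside 17.8% of all promoters. The motif holds a CG pair, and these promoters had a median of 21 such pairs, beside 6 in all promoters. In the heat shock list, with a median of 22.5 pairs, its share was 44.4%. The serum response factor site, CCWWWWWWGG with W for A or T, was in 1 of 17 (5.88%), beside 1.47% of all promoters.

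**Figure D3:**
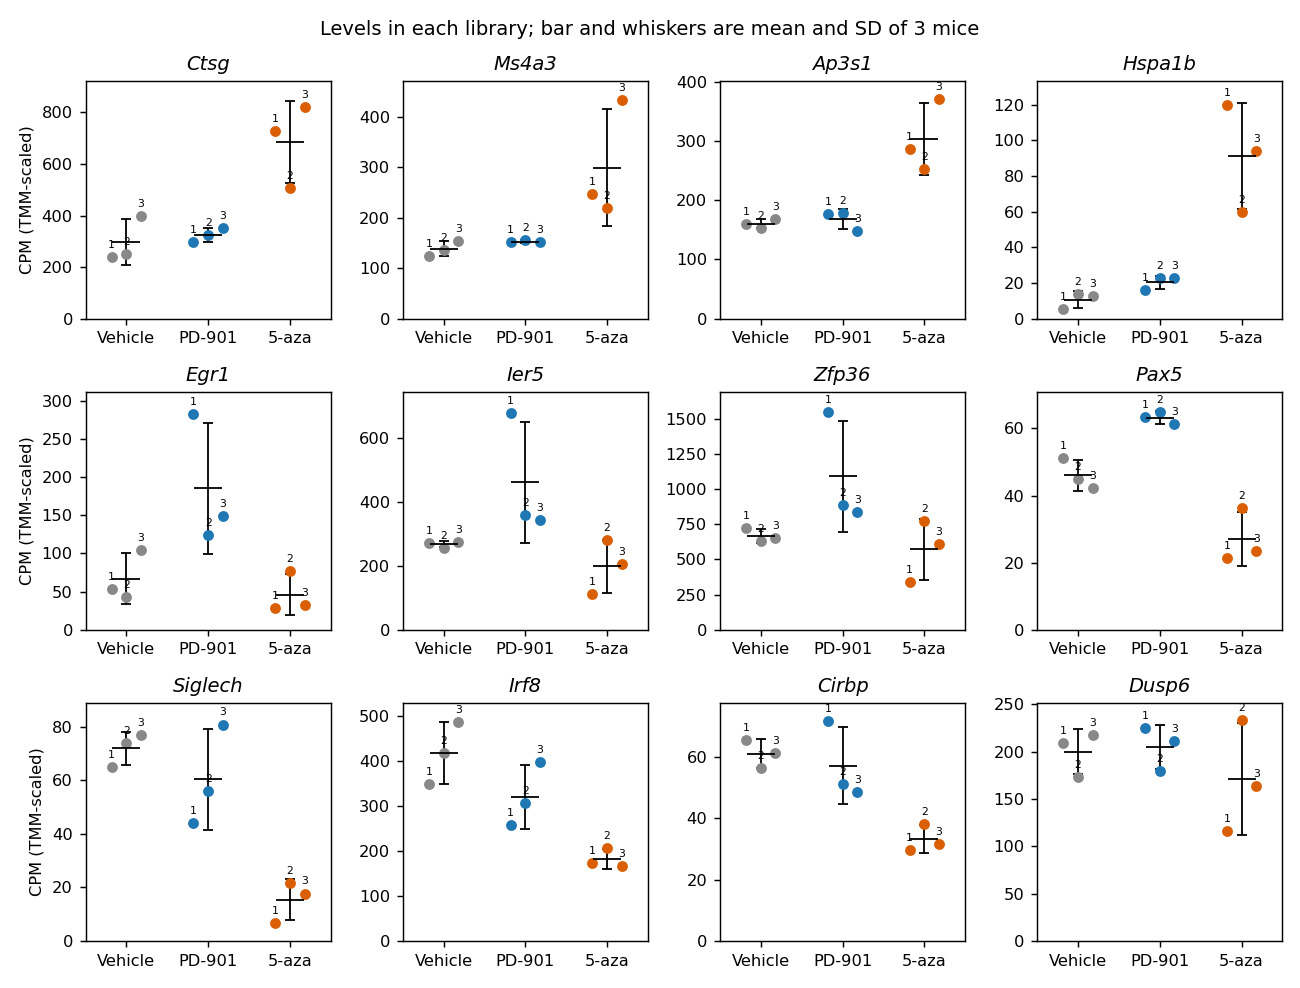
TMM-scaled CPM (y axis, from 0) of 12 genes in each vehicle, PD-901 and 5-azacitidine library, with replicate numbers, the mean (long bar) and the SD (whiskers) of 3 mice. For Ctsg, Ms4a3, Ap3s1 and Hspa1b the 5-azacitidine mice lie above all others shown. Egr1 is highest in the PD-901 mice, and for Dusp6 the groups overlap.

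Heat shock genes differed mainly in the inducible Hsp70 pair. Hspa1b and Hspa1a, neighbouring genes for nearly the same protein between which reads may be split uncertainly, are the classic targets of heat shock factor. Hspa1b stood at 16.2, 22.6 and 22.6 CPM with PD-901, at 119.7, 59.98 and 93.8 CPM with 5-azacitidine and at 5.17, 14.0 and 12.9 CPM with vehicle. The lowest 5-azacitidine mouse lay above every PD-901 and every vehicle mouse, and the difference was 2.16 ± 0.61 (SE, n = 3 a group). Over the alternatives by edgeR, DESeq2 and limma-voom its adjusted p ran from 0.0383 to 0.956. The lowest of these came from a fit of only the 6 single-agent libraries, where Hspa1b was the 1 gene called (0.00644%). Hspa1a was at 8.05, 6.95 and 14.1 CPM with PD-901 and at 32.8, 28.2 and 25.8 CPM with 5-azacitidine (1.57 ± 0.58). Of 21 members tested 18 lay above 0, 6 at an unadjusted p under 0.05 (edgeR) and 7 with no overlap, all with 5-azacitidine above, and the median was 0.23. Over all genes tested 3.06% were higher at that p and 6.55% had 5-azacitidine wholly above. The remaining 4 at that p were Bag3, a co-chaperone of Hsp70 (0.61 ± 0.22), Hsp90aa1, the inducible Hsp90 (0.43 ± 0.16), and the Hsp90 partners Cacybp (0.49 ± 0.19) and Chordc1 (0.41 ± 0.16). Against the shared vehicle mice the median of the list was 0.48 for PD-901 and 0.69 for 5-azacitidine. Hsph1, an Hsp110 chaperone, was at 121, 183 and 183 CPM with PD-901, 189.7, 189 and 179 CPM with 5-azacitidine and 50.9, 67.3 and 75.6 CPM with vehicle. Both agents thus lay wholly above vehicle, while between them the interval of the difference ran from -0.20 to 0.59.

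Hspa1b and Hsph1 are set side by side because the first separated the agents and the second did not. Each holds 1 inverted repeat of the heat shock element, GAANNTTC or TTCNNGAA, shown in capitals in the 250 bases before the start, at chr17:34959239-34959488 and chr5:149636337-149636586, both on the minus strand (RefSeq, GRCm38.p6).
Hspa1b: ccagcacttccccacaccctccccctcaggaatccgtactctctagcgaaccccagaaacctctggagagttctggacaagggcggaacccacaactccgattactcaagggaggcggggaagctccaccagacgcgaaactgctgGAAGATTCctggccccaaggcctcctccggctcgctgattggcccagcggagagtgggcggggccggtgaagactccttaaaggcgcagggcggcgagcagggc
Hsph1: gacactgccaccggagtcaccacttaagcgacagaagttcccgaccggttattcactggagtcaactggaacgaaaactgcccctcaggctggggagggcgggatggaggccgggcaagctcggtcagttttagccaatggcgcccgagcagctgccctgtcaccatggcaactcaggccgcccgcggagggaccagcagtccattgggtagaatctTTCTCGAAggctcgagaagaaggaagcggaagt
The repeat starts 104 bases before the start of Hspa1b and 33 bases before that of Hsph1. Of the list's 22 genes 18 had a promoter in the table, and 7 of them (38.9%) held either form, beside 12.8% of all promoters.

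B lineage genes lay lower in the 5-azacitidine mice than in the PD-901 mice. Against the shared vehicle mice, the median of B cell precursor genes was 0.46 for PD-901 and -0.33 for 5-azacitidine. That of mature B cell genes was 1.02 for PD-901 and 0.33 for 5-azacitidine, so both medians lay above the vehicle level there. All 15 B cell precursor genes and all 10 mature B cell genes tested had negative differences, with medians of -0.88 and -0.72, and 5 of 15 and 4 of 10 were at an unadjusted p under 0.05. The groups did not overlap for 7 of the 15 and for 1 of the 10. Over all genes tested 4.24% were lower at that p and 7.18% had PD-901 wholly above. Pax5, the transcription factor that holds B cell identity, stood at 63.4, 65.0 and 61.3 CPM with PD-901 and at 21.3, 36.2 and 23.4 CPM with 5-azacitidine. The 3 vehicle mice, at 51.2, 44.9 and 42.2 CPM, lay between the agents, and the difference was -1.23 ± 0.40 (SE, n = 3 a group; edgeR adjusted p = 0.589). Il7r, the receptor for the cytokine that early B cells need, was at 42.2, 39.0 and 50.7 CPM against 11.6, 37.2 and 26.7 CPM. Ebf1, which acts with Pax5, was at 34.2, 40.7 and 39.7 CPM against 15.2, 26.6 and 22.9 CPM. Cd79a, a signalling chain of the B cell receptor, was at 158, 164 and 116 CPM against 39.0, 122 and 77.4 CPM, and its groups overlapped through 5-azacitidine replicate 2. Among mature B cell genes Ighd, the heavy chain of IgD, was at 59.96, 76.8 and 34.3 CPM against 20.4, 44.9 and 16.4 CPM, with vehicle at 23.7 to 26.2 CPM. Blk, a B cell kinase, was at 31.3, 34.0 and 35.6 CPM against 8.05, 27.3 and 14.1 CPM. In every gene given here 5-azacitidine replicate 1 or 3 was the lowest of the 6 libraries and replicate 2 the highest of its group. The median of the precursor list was -1.31 without 5-azacitidine replicate 2 and -0.51 without replicate 1, so single mice moved its size and not its direction. The mature B cell median was -1.13 without 5-azacitidine replicate 2 and -0.47 without PD-901 replicate 2. Il7r, Blk and Cd22, a B cell inhibitory receptor, were called by edgeR without the filter, and no gene of either list by DESeq2.

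Genes of dendritic cells and the monocyte factor Irf8 also had lower levels with 5-azacitidine. Siglech and Ccr9, surface proteins of plasmacytoid dendritic cells, had differences of -1.97 ± 0.52 and -1.55 ± 0.39. Siglech stood at 44.0, 56.1 and 80.8 CPM with PD-901 and at 6.79, 21.5 and 17.7 CPM with 5-azacitidine, and Ccr9 at 10.9, 15.9 and 22.9 CPM against 3.43, 4.64 and 8.71 CPM. In neither gene did the groups overlap, and vehicle mice had 64.8 to 76.9 CPM of Siglech. Of 11 dendritic cell genes tested 4 were at an unadjusted p under 0.05, all lower, beside 4.24% of all genes tested. The other 2 were Irf4 (-0.79 ± 0.29) and the receptor Flt3 (-0.59 ± 0.22). The median was -0.49, with -0.32 without 5-azacitidine replicate 1 and -0.31 without PD-901 replicate 3. DESeq2 called Ccr9 (adjusted p = 0.0298), and edgeR without the filter called Ccr9, Irf4 and, of the monocyte list, Irf8. Xcr1 and Batf3, of conventional dendritic cells, lay above 0 at 1.03 ± 0.73 and 0.67 ± 0.73. Irf8, a transcription factor of monocytes and dendritic cells, was at 258, 306 and 398 CPM with PD-901, at 173, 208 and 168 CPM with 5-azacitidine and at 349.5 to 487 CPM with vehicle (-0.81 ± 0.22). The 12 monocyte genes had a median of -0.26 and 2 at that p, Irf8 and Klf4. That median was -0.10 without 5-azacitidine replicate 1 and -0.58 without replicate 2. Pacsin1, a membrane-bending protein that plasmacytoid dendritic cells express, was among the 12 lower genes named by rank of p, at 6.35, 8.36 and 15.5 CPM against 1.52, 3.01 and 3.01 CPM (-1.99 ± 0.37).

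ERK output genes, the readout of the pathway that PD-901 blocks, showed no common direction. Over all genes tested 48.5% lay above 0, and 3.06% were higher and 4.24% lower at an unadjusted p under 0.05. Of 20 members 12 lay above 0 and 8 below, with a median of 0.12, 1 higher and 3 lower at that p. The median turned to -0.06 without PD-901 replicate 1 and to -0.07 without 5-azacitidine replicate 2, and it was 0.04 without PD-901 replicate 2, 0.26 without PD-901 replicate 3 and 0.36 in the 7 libraries. Dusp6, the phosphatase that ERK induces and that switches ERK off, stood at 225, 179.5 and 211 CPM with PD-901, 116, 233 and 164 CPM with 5-azacitidine and 209, 173 and 218 CPM with vehicle. The 3 groups overlapped, the difference was -0.26 ± 0.26, and its 95% interval (-0.82 to 0.29) excludes a 2-fold difference in either direction. Etv5, an ETS factor under ERK control, differed by 0.05 ± 0.34 (interval -0.68 to 0.79). Spry4, a Sprouty inhibitor, was at 3.14, 5.06 and 4.48 CPM against 3.23, 7.02 and 4.08 CPM, and its interval, -1.47 to 1.83, allows a difference of more than 2-fold either way. Ccnd1, cyclin D1, differed by -0.41 ± 0.47. The 1 higher member was Spred1, an inhibitor of Ras activation (0.41 ± 0.19), and the 3 lower were Epha2 (-1.17 ± 0.50), Phlda1 (-0.81 ± 0.35) and Ier3 (-0.54 ± 0.24). Ier3 shared the highest library of the immediate early genes, PD-901 replicate 1, at 103 CPM against 54.8 and 54.4 CPM in the other two PD-901 mice. Against vehicle the median of the list was -0.27 for PD-901 and -0.25 for 5-azacitidine.

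Ras pathway components had a median of 0.00 over 28 genes. A share near the 7.3% of all genes tested, 2 of 28, was at an unadjusted p under 0.05. These were Rasa2, a GTPase activator that turns Ras off (0.53 ± 0.18), and Sos1, the exchange factor that turns it on (0.32 ± 0.14). Ptpn11 itself, the mutant gene, was at 132, 120.4 and 139 CPM with PD-901 and at 149, 125 and 133 CPM with 5-azacitidine, a difference of 0.06 ± 0.12. These counts do not separate the mutant from the normal transcript. Lyz2, whose promoter drives the Cre, is also the gene into which LysM-Cre is inserted, and the labels do not say how many copies of it each mouse carried, so a low level has no single reading here. It ranged over 4182, 699.65 and 2566 CPM with PD-901 and 2773, 3389 and 1807 CPM with 5-azacitidine, and over 147 to 3228 CPM in the vehicle mice. Its spread within groups left the difference between agents undetermined (interval -3.402 to 3.60).

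The DNA methylation machinery, the target of 5-azacitidine, had differences near 0. Dnmt1, the maintenance methyltransferase, stood at 307, 373 and 430.0 CPM with PD-901 and at 499, 314 and 331 CPM with 5-azacitidine, and Uhrf1, its partner at replicated DNA, at 241, 300.1 and 331 CPM against 334, 281 and 278 CPM. Both differences were 0.04, with SEs of 0.18 and 0.14 and intervals within -0.35 to 0.44. Of 15 genes of the list 1, the stress gene Gadd45a, was at an unadjusted p under 0.05 (-0.54 ± 0.25), beside 7.3% of all genes tested. The median of the list was 0.00 (-0.20 without 5-azacitidine replicate 1). Germline genes that methylation keeps silent were mostly too low to test. Only 5 of 19 had enough counts, and 0 of these were at an unadjusted p under 0.05 (edgeR). Of 20 imprinted genes 11 were tested, with a median of -0.13 (-0.40 without 5-azacitidine replicate 1) and 1 at that p, Nnat (-0.92 ± 0.43).

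Genes that take up and process 5-azacitidine were compared because their levels bear on how much active drug a cell forms. Cda, cytidine deaminase, which inactivates the drug, had 0 counts in all 3 PD-901 libraries and 29, 14 and 5 counts in the 5-azacitidine libraries (1.91, 0.877 and 0.232 CPM). Against a floor of 3 counts over the PD-901 group it was at least 20.96-fold higher with 5-azacitidine. The vehicle libraries held 0, 5 and 4 counts and the combination libraries 115, 21 and 76, so the gene was low everywhere. Cda was called by DESeq2 (adjusted p = 0.0107) and by edgeR without the low-count filter (adjusted p = 0.000216), not in the model used here (adjusted p = 0.502). Uck2, the kinase that first phosphorylates the drug, was at 94.8, 111 and 107 CPM with PD-901 and at 145, 119 and 121 CPM with 5-azacitidine (0.30 ± 0.14). Rrm2b, a ribonucleotide reductase subunit, was lower (-0.65 ± 0.23). Of 20 genes 2 were higher and 1 lower at an unadjusted p under 0.05, and 7 lay wholly above and 1 wholly below. Over all genes tested 3.06% were higher and 4.24% lower at that p, with 6.55% wholly above and 7.18% wholly below. The median of the list was 0.12, or 0.07 without 5-azacitidine replicate 2. The Cda promoter is printed because it is the gene of the drug's metabolism with reads in only one of the single-agent groups and because the drug lowers methylation at CpG sites, shown in capitals (RefSeq, GRCm38.p6, chr4:138367956-138368205, minus strand).
Cda: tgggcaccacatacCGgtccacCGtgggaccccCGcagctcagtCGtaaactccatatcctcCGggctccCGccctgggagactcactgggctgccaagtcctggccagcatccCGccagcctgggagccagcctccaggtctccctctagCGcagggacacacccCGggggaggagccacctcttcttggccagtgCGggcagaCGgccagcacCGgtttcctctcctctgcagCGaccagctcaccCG
The window holds 14 CpG sites, where promoters of the table have a median of 6 (quartiles 2 and 16). Methylation itself was not measured in these libraries.

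Growth and stress programs had medians slightly above 0. All 23 genes of G2 and mitosis had positive differences, with a median of 0.20 and 2 at an unadjusted p under 0.05, Ube2c (0.44 ± 0.19) and Aurka, a mitotic kinase (0.31 ± 0.14). The 33 S phase genes had a median of 0.09 (0.04 without 5-azacitidine replicate 3), 27 above 0, and 1 at that p, the uracil glycosylase Ung, which was lower (-0.45 ± 0.16). Over all genes tested 3.06% were higher and 4.24% lower at that p. Mki67, the proliferation marker, was at 763, 785 and 972 CPM against 1232, 746 and 753 CPM, so 1 mouse of 3 stood higher. The glycolysis and hypoxia list of 21 symbols had 22 gene entries tested, with a median of 0.30. Of the 22 entries 6 were at that p, all higher. For 9 the groups did not overlap, with 5-azacitidine above, beside 6.55% of all genes tested. Tpi1, triose phosphate isomerase, was at 244, 259 and 244 CPM with PD-901 and at 304, 309 and 435 CPM with 5-azacitidine (0.49 ± 0.15). Gapdh, Eno1, Pgk1, Ldha and Aldoa, further steps of the pathway, had differences of 0.35 to 0.43. Hypoxia targets of the same list such as Vegfa (0.07 ± 0.17) and Egln3 (0.03 ± 0.16) had values near 0. Among p53 targets 3 of 21 were higher and 2 lower at that p, with 14 above 0, 7 below and a median of 0.14. Summed over the list the order was the other way, at 876 to 1170 CPM with PD-901 and 807 to 960 CPM with 5-azacitidine. Btg2, also on the immediate early list, was lower (-0.81 by edgeR without the filter on low counts). Cdkn1a, the p21 inhibitor of the cell cycle, was at 14.9, 15.7 and 22.1 CPM with PD-901 and at 25.3, 31.6 and 20.3 CPM with 5-azacitidine (0.55 ± 0.21), and Ccng1, cyclin G1, at 76.2, 66.9 and 73.6 against 116, 90.8 and 90.9 CPM (0.46 ± 0.14). Eda2r, a death receptor gene, was at 0.119, 0.610 and 0.218 against 3.10, 0.627 and 0.648 CPM, with 1 mouse high.

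**Figure D4:**
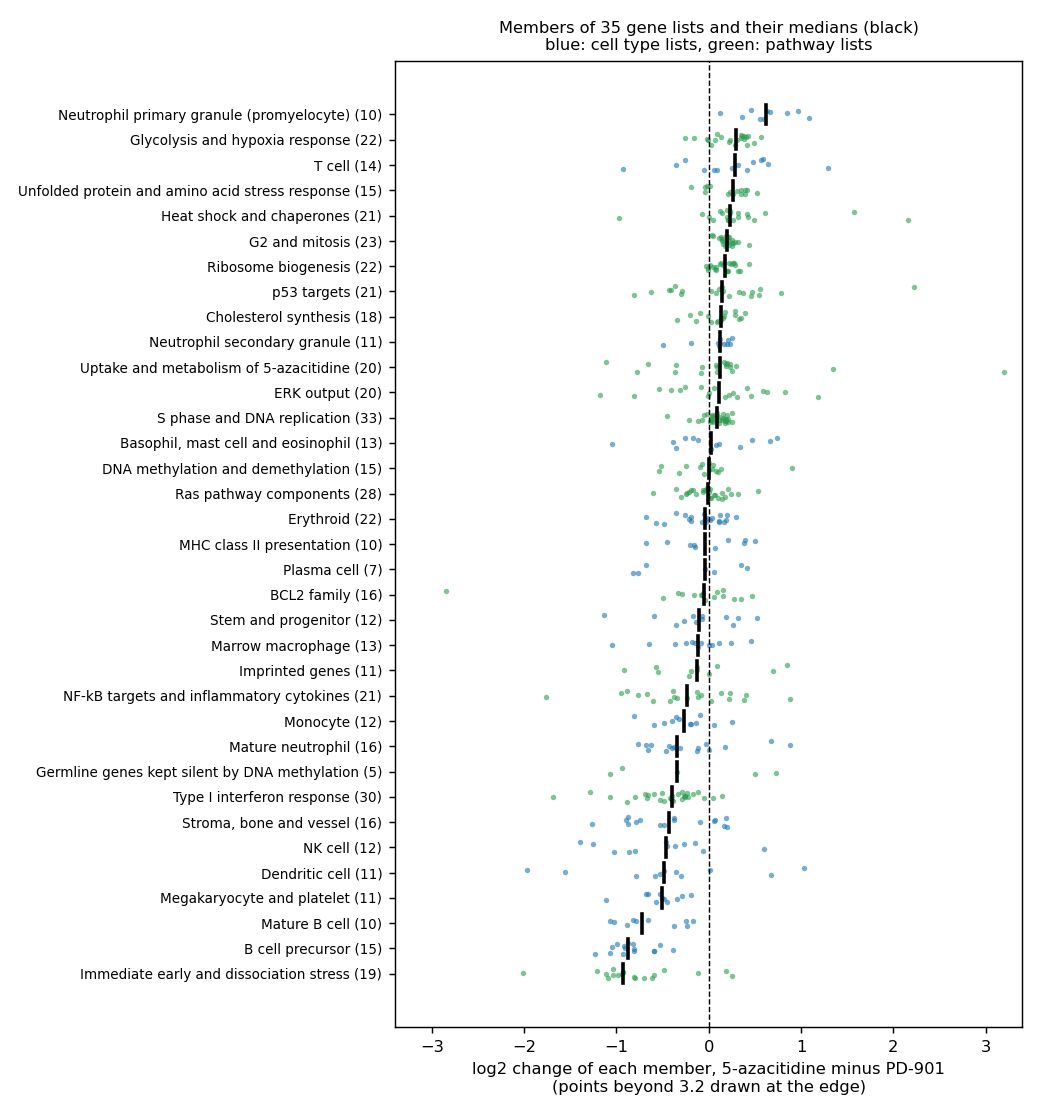
The log2 change (5-azacitidine minus PD-901, x axis) of every tested member of 35 gene lists, with the number tested in brackets, blue for cell type lists and green for pathway lists; black bars are medians, and points beyond 3.2 are drawn at the edge. The primary granule list has the highest median, 0.62, and the immediate early list the lowest, -0.93.

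The genes with the lowest p in each direction, taken by rank since none passed the adjusted threshold, belonged to several functions. Ap3s1, a subunit of the AP-3 complex that sorts cargo to lysosome-related granules, stood at 177, 179.0 and 148 CPM with PD-901, at 286, 253 and 371 CPM with 5-azacitidine and at 154 to 168 CPM with vehicle. It had the lowest p of all genes in this contrast, with a difference of 0.85 ± 0.16 (SE, n = 3 a group; edgeR adjusted p = 0.502). B4galt6, an enzyme of glycolipid synthesis, was at 60.1, 59.7 and 70.4 CPM against 178, 78.9 and 135 CPM. Gstm1, a glutathione transferase, was at 168, 152 and 194 CPM against 379.8, 206 and 362 CPM, and Ada, adenosine deaminase, at 27.02, 26.0 and 22.8 CPM against 46.4, 32.8 and 56.2 CPM. In B4galt6, Gstm1 and Ada, as in Elane and Mpo, 5-azacitidine replicate 2 lay nearest to the PD-901 mice. Cttnbp2nl differed from these in its place against vehicle. It stood at 2.94, 2.56 and 2.11 CPM with PD-901, 5.74, 7.08 and 6.30 CPM with 5-azacitidine and 6.90 to 9.11 CPM with vehicle, so that PD-901 was the group apart.

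Among the lower genes, Cirbp, the cold-inducible RNA-binding protein whose mRNA falls with heat and stress, was at 71.7, 51.1 and 48.7 CPM with PD-901, 29.5, 38.2 and 31.8 CPM with 5-azacitidine and 56.4 to 65.7 CPM with vehicle (-0.79 ± 0.16). Bcl7a, a subunit of the SWI/SNF remodelling complex, was at 69.7, 82.2 and 98.9 CPM against 39.3, 57.7 and 37.8 CPM. Adam11, a catalytically inactive relative of the ADAM proteases, was at 7.22, 8.24 and 14.1 CPM against 2.04, 1.82 and 2.69 CPM. Fmnl2, a formin that builds actin filaments, was at 48.2, 40.6 and 43.6 CPM against 22.7, 26.3 and 22.3 CPM. For Cirbp, Bcl7a and Fmnl2 the vehicle mice lay with or near the PD-901 mice. The 12 genes named in each direction had edgeR adjusted p values of 0.502 to 0.513 in this model. All kept their direction in the 21 alternative fits. They were chosen for low p and no overlap in these same libraries, so the kept direction is no separate support. DESeq2 called all 24 of them (adjusted p = 0.00177 to 0.0429), and edgeR without the filter on low counts called 21, the exceptions being Cttnbp2nl, Trmt10c and Egr1.

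**Figure D5:**
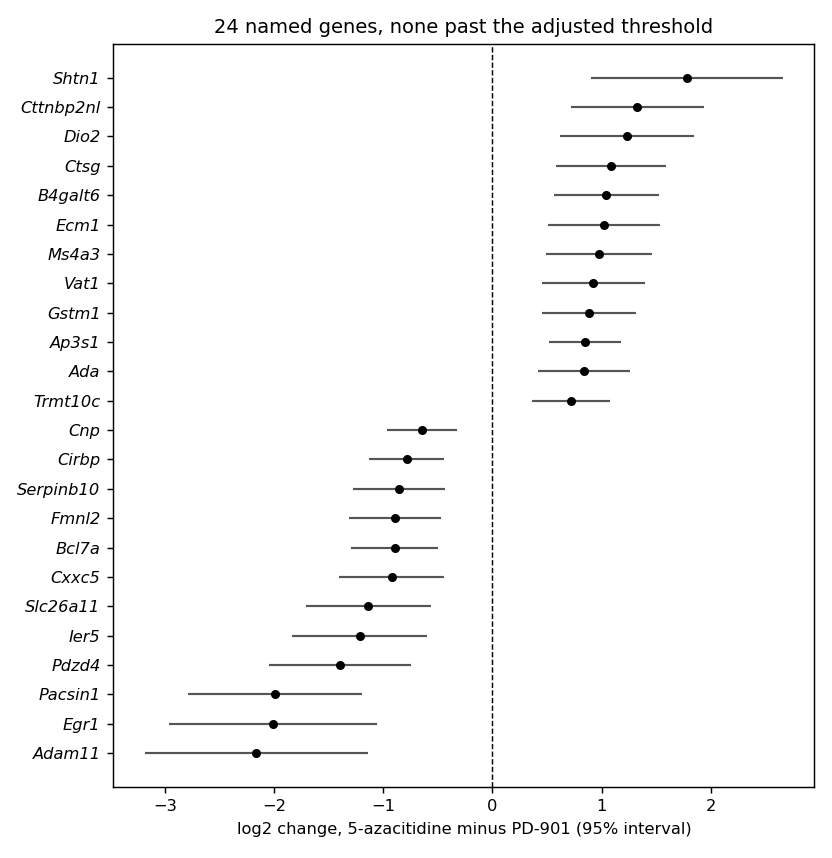
Log2 change (5-azacitidine minus PD-901, x axis) with its 95% interval for the 12 higher and 12 lower genes named by rank of p. The genes were chosen by low p, so all intervals exclude 0 before adjustment. None of the genes passed the adjusted threshold in the model of 12 libraries.

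Few genes placed the vehicle mice wholly between the agents. With 5-azacitidine above this held for 10 genes (0.0572% of those tested) and with PD-901 above for 19 (0.109%). With 3 libraries a group, some genes fall in such an order without any effect of the agents. That share was not estimated, so a place in this set is a description only. Tnf, the inflammatory cytokine, which edgeR called without the filter on low counts (adjusted p = 0.00169), was the PD-901 side gene with the lowest p, at 65.3, 36.9 and 32.1 CPM with PD-901, 17.2, 23.2 and 28.9 CPM with 5-azacitidine and 29.2 to 30.2 CPM with vehicle. Pax5 was in the same set. Izumo1r, which encodes folate receptor 4 of regulatory T cells, led the other direction, with means of 0.364 CPM for PD-901, 0.804 CPM for vehicle and 3.08 CPM for 5-azacitidine, and was called by DESeq2 (adjusted p = 0.0196). Presence and absence separated the agents in few genes too. With at least 10 counts in every library of one group and 0 in every library of the other, 3 genes were found for PD-901 (Pde9a, a cyclic GMP phosphodiesterase, and the small RNA genes Gm24371 and Gm25889) and 0 for 5-azacitidine. Pde9a had 13, 16 and 13 counts in the PD-901 libraries and was at least 10.7-fold lower with 5-azacitidine, against a floor of 3 counts over the group.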

How the data were processed

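Total RNA of bone marrow was sequenced in pairs of reads, 1 library a mouse. The authors deposited unnormalized counts of reads for each gene. Tools listed in the submitters' processing notes are STAR 2.7.2a, Subread 1.6.5, featureCounts and bcl2fastq, with the build mm10. Neither the annotation release nor the strand setting is named there, so overlapping genes and near-identical copies are uncertain. The analysis used edgeR 4.0.16 in R 4.3.3. Here filterByExpr over 4 groups (minimum count 10, minimum total 15) kept 17475 of 56350 genes, TMM factors were 0.929 to 1.07, and a robust quasi-likelihood model with 1 mean per group was fitted to 12 libraries (8 residual degrees of freedom). Tests were two-sided with a threshold of 0.05 on adjusted p, and SEs and 95% intervals are those implied by the F statistic. CPM are TMM-scaled, except for sex-linked genes. Total counts of 15356919 to 27148190 limit genes with few counts, and counting intervals and floors cover counting error only.

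Members and gene lists were chosen with earlier results of these data known, so no list was tested as a set. Each list is described by its counts and median beside those of all genes. Named were 12 genes in each direction (no overlap, 5 CPM or more on average in the group that was higher, by size of change past the threshold and otherwise by p), 14 fixed genes and up to 5 members of a list by p; further names were chosen after their values were seen. Replicate numbers follow accession order and only name the mice. No 2 libraries of a group were near-copies (chi-square over its degrees of freedom 19.9 to 71.2 for pairs). On simulated counts for this comparison (16654 genes tested) the test recovered 33% of 100 genes changed 2-fold and 68% of 100 changed 4-fold, with 4 of 105 calls on unchanged genes. Each simulated gene varied independently, without shifts shared by many genes of a mouse. The recovered shares therefore describe such counts and not these libraries. Alternatives were DESeq2 size factors, other low-count filters, DESeq2 1.42.0, limma-voom (limma 3.58.1), only the single-agent libraries, sex as a covariate and each library left out. A Y-linked covariate and the 7 libraries without double sex-linked reads were added after seeing the data.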

Additional observations from a re-analysis of the deposited data

How the results depend on the processing

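The count of 0 genes called higher and 0 lower held with DESeq2 size factors, a stricter filter, limma-voom, sex as a covariate, the Y-linked covariate and 11 of 12 fits that left out 1 library. It was 36 and 108 with no low-count filter, 18 and 27 with DESeq2 (3392 adjusted p were NA), 1 higher with only the 6 single-agent libraries and 3 lower with the 7 libraries. Leaving out 1 library gave 0 to 1 higher and 0 to 2 lower. Genes seen with PD-901 alone numbered 1 after thinning to the smallest library, 21 at 5 counts and 0 at 20, and 3 to 17 without 1 library; those seen with 5-azacitidine alone numbered 5 at 5 counts and 0 to 3 without 1 library. The cause was not tested. In the 7 libraries Lyz2 was at -0.87 and Ccnd1 at 0.39. Without 1 library these small differences crossed 0: Etv5 (-0.14 to 0.29), Dnmt1 (-0.20 to 0.17), Uhrf1 (-0.087 to 0.14), Lyz2 (-0.34 to 0.70), Ccnd1 (-0.73 to 0.13), Ptpn11 (-0.0141 to 0.11), Mki67 (-0.16 to 0.23) and Spry4 (-0.20 to 0.39). No paired analysis was possible because the replicate numbers only name the mice and no label pairs them. Depth limits genes with few counts, such as Cda and Spry4.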

Other observations

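Values of further cell type and pathway lists follow as log2 differences of 5-azacitidine minus PD-901, with no member past the adjusted threshold by edgeR's quasi-likelihood test on 12 libraries. All 11 megakaryocyte and platelet genes lay below 0, with a median of -0.50 and 3 at an unadjusted p under 0.05. Over all genes tested 51.5% lay below 0 and 4.24% were lower at that p. Itgb3, the integrin chain of the platelet fibrinogen receptor, stood at 85.7, 108 and 74.1 CPM with PD-901 and at 57.4, 44.8 and 64.4 CPM with 5-azacitidine, and Itga2b, its partner chain, at 85.3, 129 and 80.8 against 77.2, 65.4 and 72.6 CPM. The median was -0.15 without PD-901 replicate 2, the mouse with the highest values. Of 16 stroma, bone and vessel genes 11 lay below 0 and 5 above, with a median of -0.43 that was -0.09 without 5-azacitidine replicate 1 and -0.25 without PD-901 replicate 1, and 3 were at that p, all lower. Cdh5, the endothelial cadherin, was at 6.19, 6.59 and 6.12 against 3.69, 2.07 and 2.13 CPM, Cxcl12, a stromal chemokine that keeps stem cells and B cell precursors in the marrow, at 34.9, 18.4 and 23.8 against 17.0, 14.3 and 14.7 CPM, and Pdgfrb of pericytes at 2.22, 2.87 and 2.55 against 1.25, 1.57 and 1.34 CPM. Cd163, a scavenger receptor of marrow macrophages, was at 22.7, 28.3 and 37.0 against 11.7, 16.4 and 14.5 CPM, while 4 of 13 genes of the macrophage list lay above 0. That list had a median of -0.12, which turned to 0.09 without 5-azacitidine replicate 1 and to 0.02 without PD-901 replicate 2, and was -0.58 without 5-azacitidine replicate 2. The 22 erythroid genes had a median of -0.04 between the agents, which turned to 0.06 without 5-azacitidine replicate 3, and medians of 0.63 and 0.62 against the shared vehicle mice. Of these genes Itgb3, Cxcl12 and Cd163 were called by edgeR without the filter on low counts and none by DESeq2.

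Of 30 type I interferon response genes 28 lay below 0, with a median of -0.40, 4 at an unadjusted p under 0.05 and 3 with no overlap. Over all genes tested 51.5% lay below 0, 4.24% were lower at that p and 7.18% had PD-901 wholly above. Oasl1 was at 28.1, 25.4 and 31.8 CPM with PD-901 and at 13.8, 23.4 and 12.0 CPM with 5-azacitidine, and Bst2, the antiviral protein tetherin, at 75.6, 77.8 and 87.5 against 38.8, 66.9 and 46.5 CPM. The median was -0.81 without 5-azacitidine replicate 2 and -0.21 without replicate 1, and Bst2 was called by edgeR without the filter. Unfolded protein response genes had 2 of 15 at that p, both higher, 6 with no overlap and a median of 0.26 (0.16 without 5-azacitidine replicate 3). Of all genes tested 3.06% were higher at that p and 6.55% had 5-azacitidine wholly above. Hspa5, the main chaperone of the endoplasmic reticulum, was at 960.3, 977 and 957 against 1089, 1084 and 1297 CPM. NK cell genes lay below 0 in 11 of 12 cases, with a median of -0.46 (-0.88 without 5-azacitidine replicate 2, -0.29 without replicate 1 and without PD-901 replicate 2), and 3 lower and 1 higher were at that p. Gzma and Prf1, of the killing machinery, were lower (-1.40 ± 0.53 and -1.03 ± 0.45) and Nkg7 higher (0.59 ± 0.21). Plasma cell genes were split, with 3 of 7 above 0 and a median of -0.04 that ran from -0.45 to 0.17 over the alternatives. Jchain, the joining chain of secreted antibody, was at 549, 707 and 566 against 387, 331 and 419 CPM and was called by edgeR without the filter, and Sdc1, the plasma cell surface marker, was at -0.77 ± 0.30. Xbp1, the secretory factor that the unfolded protein list shares, was higher at 0.35 ± 0.16 with no overlap, and Tnfrsf17 stood at 0.41 ± 0.62.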
